A study of Bos taurus with 18 samples.

Results

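The cholesterol module examined here held 29 genes of cholesterol synthesis, of its control by the SREBP transcription factors, and of intracellular cholesterol transport, storage and efflux. Its genes were taken by symbol from a bovine endometrial count table of 38001 genes; all 29 had a row and all 29 passed the low-count filter that left 19638 genes for testing. Levels are given as CPM, the count scaled to the normalized library size, and changes as log2 fold changes ± standard error (SE). Endometrial cells had been brushed from the uterine horn of 6 Holstein cows (Bos taurus) with a cytobrush, a small brush that takes up surface cells, and poly(A) RNA was sequenced. Every cow underwent Ovsynch, a hormonal synchronization of ovulation, before each cycle. Every cow gave a sample on day 4 and on day 7 of an untreated first cycle, and on day 7 of a second cycle in which a progestogen was given on day 4. Animals A, B and C received a depot of 100 mg 17α-hydroxyprogesterone caproate (17-OHPC, an esterified synthetic progestogen) with 10 mg progesterone (P4), and animals D, E and F received 100 mg P4. The 6 groups of 3 libraries are therefore day 4 control, day 7 control and day 7 treated in a 17-OHPC/P4 arm and in a P4 arm. The treated cycle always came after the control cycle, so that treatment and cycle cannot be told apart.

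Cholesterol is built from acetyl-CoA through mevalonate, isoprenoid diphosphates, squalene and lanosterol, and lanosterol is then stripped of methyl groups and reduced to cholesterol. When membranes of the endoplasmic reticulum are low in sterol, SCAP escorts the SREBP precursors to the Golgi, where they are cleaved into active factors that raise transcription of these enzymes, while the INSIG proteins hold SCAP back when sterol is plentiful. Cholesterol taken up in lipoproteins leaves the lysosome through NPC2 and NPC1, and surplus is esterified by SOAT1 or exported by ABCA1. Around implantation the endometrium is known to remodel its membranes and lipid stores under progesterone. The messenger RNA of these genes was measured here, while sterol content and SREBP cleavage were not.

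Total counts ran from 29347255 to 40733544 per library, and the lowest count of any of the 29 genes in any library was 278. The 7 epithelial markers (keratins KRT8, KRT18 and KRT19, with EPCAM, CDH1, CLDN4 and MUC1) were detected in every library, with summed levels of 2219 to 4615 CPM. The libraries of animal C stood apart. Their 7 stromal markers summed to 6352, 4506 and 3011 CPM on day 4, control day 7 and treated day 7, against 112 to 3386 CPM in the other animals, and their red cell markers HBB and ALAS2 to 2384, 4168 and 358 CPM, against at most 4.15 CPM. The markers MARCO, S100A8, S100A9, HBB and ALAS2 were at 0 in at least 1 library. The day 4 library of animal C had the lowest level of all 18 libraries for 16 of the 29 genes and for 13 of the 19 synthesis enzymes. In brushed tissue, fewer cells of a type and less RNA per cell cannot be told apart.

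From day 4 to day 7 without treatment, 3 genes of the module rose: MSMO1 and NSDHL, which remove methyl groups from the lanosterol skeleton, and NPC1, the membrane protein that releases cholesterol from lysosomes. No gene of the module fell. The 3 calls are 10.3% of the module. Of all genes tested, 10.6% passed the same threshold in either direction (6.27% as higher). In this fit, which leaves the pairing of samples within cows unused, the share called was thus near that of the transcriptome. Calls are adjusted p under 0.05 by edgeR's quasi-likelihood test with Benjamini-Hochberg adjustment over all 19638 genes. The fitted change was positive for 24 of the 29 genes and the median was 0.29 on the log2 scale, against -0.05 for all genes tested. Within animals, 11 of the 29 genes (37.9%) were higher on day 7 than on day 4 in 6 of 6 cows, a pattern shown by 10.5% of all genes: IDI1, FDPS, FDFT1, CYP51A1, TM7SF2, MSMO1, NSDHL, SREBF1, INSIG1, STARD4 and NPC1. None was lower in all 6 cows, as 9.03% of all genes were. For no gene of the module did the 6 day 4 libraries and the 6 control day 7 libraries separate completely, which 3.69% of all genes did.

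**Figure D1:**
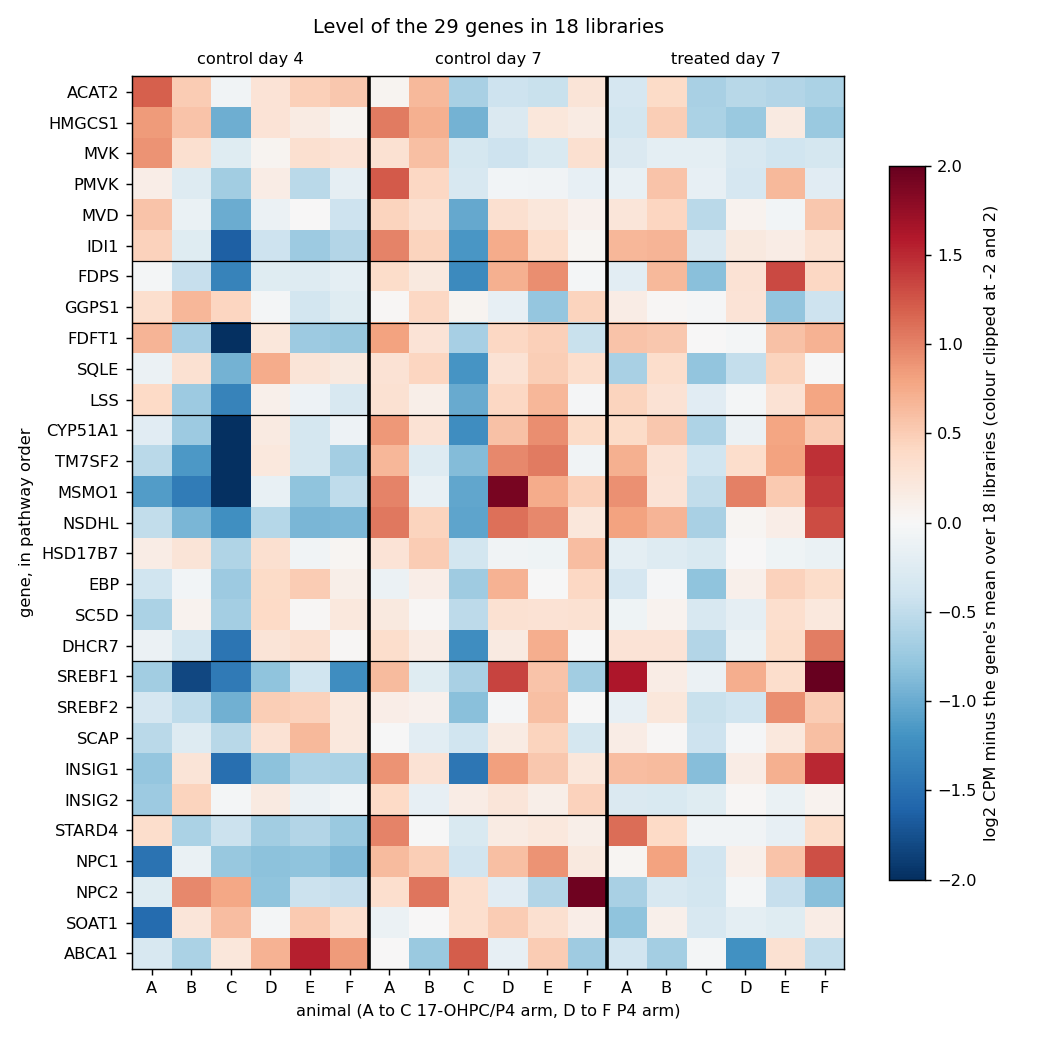
Log2 CPM of each of the 29 genes minus that gene's mean over the 18 libraries, with genes in pathway order (vertical axis) and libraries by condition and animal (horizontal axis); red is above and blue below the gene's mean. From day 4 to day 7, TM7SF2, MSMO1, NSDHL, SREBF1 and INSIG1 turn from blue towards red in most animals, whereas animal C stays blue for most enzymes in all 3 conditions.

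With the animal as a block, which uses the cows' repeated samples, 9 of the 29 genes of the module were called, against 16.7% of all genes. The share called was thus above that of the transcriptome, and this excess was not tested. In that fit 8 rose, among them IDI1 (0.76, adjusted p = 0.0103), CYP51A1 (0.85, adjusted p = 0.0145), TM7SF2 (1.04, adjusted p = 0.0176), INSIG1 (0.92, adjusted p = 0.0325) and STARD4 (0.65, adjusted p = 0.0102) beside MSMO1, NSDHL and NPC1, and ACAT2 fell by 0.59 (adjusted p = 0.0441). DESeq2 called 5 genes (11.9% of all genes), adding TM7SF2 and SREBF1. Leaving out 1 library moved the count between 2 and 7. It was 7 without animal C's control day 7 library and 5 without animal A's day 4 or animal F's control day 7 library. Without all 3 libraries of animal C it was 6 of 29, again a higher share than the 7.58% of all genes called.

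The first steps of the pathway make mevalonate and the isoprenoid unit, and none of their 6 genes was called; their median change was 0.13. HMGCS1, the cytosolic synthase that condenses acetoacetyl-CoA and acetyl-CoA, had similar means on both days: 379, 313 and 107 CPM on day 4 and 433, 345 and 109.7 on control day 7 in animals A, B and C, and 255, 235 and 219 then 172, 246 and 235 in animals D, E and F. Its change was 0.02 ± 0.35 (95% interval -0.73 to 0.76, adjusted p = 0.982), and 5 of 6 cows differed by less than 0.20. ACAT2, the cytosolic thiolase that supplies acetoacetyl-CoA, averaged 70.2 ± 21.7 CPM (SD, n = 6) on day 4 and 47.9 ± 17.1 on control day 7, with a change of -0.56 ± 0.25 (adjusted p = 0.17); it was lower on day 7 in 5 of 6 cows. IDI1, the isomerase that makes the reactive isoprene unit, went the other way in every cow, from 93.8 ± 43.1 to 159.6 ± 65.7 CPM, a change of 0.78 ± 0.35 (adjusted p = 0.167). The mevalonate kinase MVK ran from 27.8 to 68.6 CPM over the 18 libraries, the phosphomevalonate kinase PMVK from 22.2 to 84.5 and the decarboxylase MVD from 31.4 to 94.6; their changes were -0.24, 0.44 and 0.24, with adjusted p of 0.48, 0.302 and 0.635.

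Downstream of the isoprene unit, FDPS makes farnesyl diphosphate, the branch point to squalene, and GGPS1 makes geranylgeranyl diphosphate for protein prenylation. FDPS levels ran from 59.7 to 378 CPM and were higher on day 7 in 6 of 6 cows, with a change of 0.63 ± 0.33 (adjusted p = 0.24), while GGPS1 ran from 12.5 to 34.3 CPM with a change of -0.09 ± 0.20 (adjusted p = 0.82). Squalene synthase FDFT1, the first enzyme committed to sterols, averaged 262 ± 158 CPM on day 4 and 379.8 ± 137 on control day 7 (0.54 ± 0.38, adjusted p = 0.405). It was higher on day 7 in all 6 cows, by 0.12 in animal A and by 1.33 in animal C. The epoxidase SQLE averaged 129 ± 44.2 CPM on day 4 and 134 ± 41.4 on control day 7 (0.06 ± 0.29, interval -0.56 to 0.69, adjusted p = 0.917), and lanosterol synthase LSS, which closes the sterol rings, ran from 33.4 to 145 CPM (0.38 ± 0.29, adjusted p = 0.437).

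The 8 enzymes between lanosterol and cholesterol had a median change of 0.59 and all 8 fitted changes were positive. Of all 19638 genes tested, 9057 had a positive change. Calls were made for 2 of the 8 enzymes (25%), against 10.6% of all genes. MSMO1, the sterol methyl oxidase, stood at 234, 191 and 84.7 CPM on day 4 and 1007, 455 and 245 on control day 7 in animals A, B and C. In animals D, E and F it stood at 457, 289 and 354 CPM on day 4 and 1872, 846 and 700 on control day 7. Within each arm every control day 7 library lay above every day 4 library, although animal C on day 7 remained below 3 of the day 4 libraries of the whole set. The level was 3.23-fold higher on day 7, a log2 change of 1.69 ± 0.39 (95% interval 0.86 to 2.52, adjusted p = 0.0151), and each cow rose by 0.98 to 2.11. MSMO1 was called without any 1 of the 12 libraries, with adjusted p of at most 0.0479.

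NSDHL, the sterol dehydrogenase that acts after MSMO1 on the same methyl groups, stood at 101, 75.7 and 60.7 CPM on day 4 and 296, 193 and 68.3 on control day 7 in the 17-OHPC/P4 arm. In the P4 arm it went from 96.3, 75.8 and 76.0 to 304, 277 and 166 CPM. The day 4 libraries were close together and all day 7 libraries except animal C's were above them. The change was 1.41 ± 0.35, a 2.66-fold rise (adjusted p = 0.0214). Without animal A's or D's control day 7 library, or C's, E's or F's day 4 library, the adjusted p was 0.054 to 0.0689, and without all of animal C it was 0.0108.

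CYP51A1, the lanosterol demethylase, and the sterol reductase TM7SF2 were higher on day 7 in 6 of 6 cows without passing the test. CYP51A1 averaged 157 ± 63.6 CPM on day 4 and 283 ± 111 on control day 7 (0.88 ± 0.35, adjusted p = 0.12). TM7SF2 stood at 22.1, 14.48 and 6.90 then 50.7, 26.9 and 17.5 CPM in animals A, B and C and at 37.2, 25.2 and 20.02 then 62.0, 65.6 and 30.5 in D, E and F (1.03 ± 0.34, adjusted p = 0.067). For both genes the 2 groups of 6 overlapped. The last 4 enzymes had smaller fitted changes: HSD17B7, the ketosteroid reductase of the demethylation reactions, had a change of 0.14 ± 0.18, the sterol isomerase EBP 0.11 ± 0.18, the desaturase SC5D 0.19 ± 0.16 and the reductase DHCR7 0.29 ± 0.30, with adjusted p from 0.489 to 0.745. Over the 18 libraries HSD17B7 ran from 40.6 to 95.3 CPM, EBP from 27.4 to 77.5, SC5D from 67.3 to 142 and DHCR7 from 43.8 to 245. The highest SC5D level was in animal D's day 4 library and the highest DHCR7 level in animal F's treated library.

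**Figure D2:**
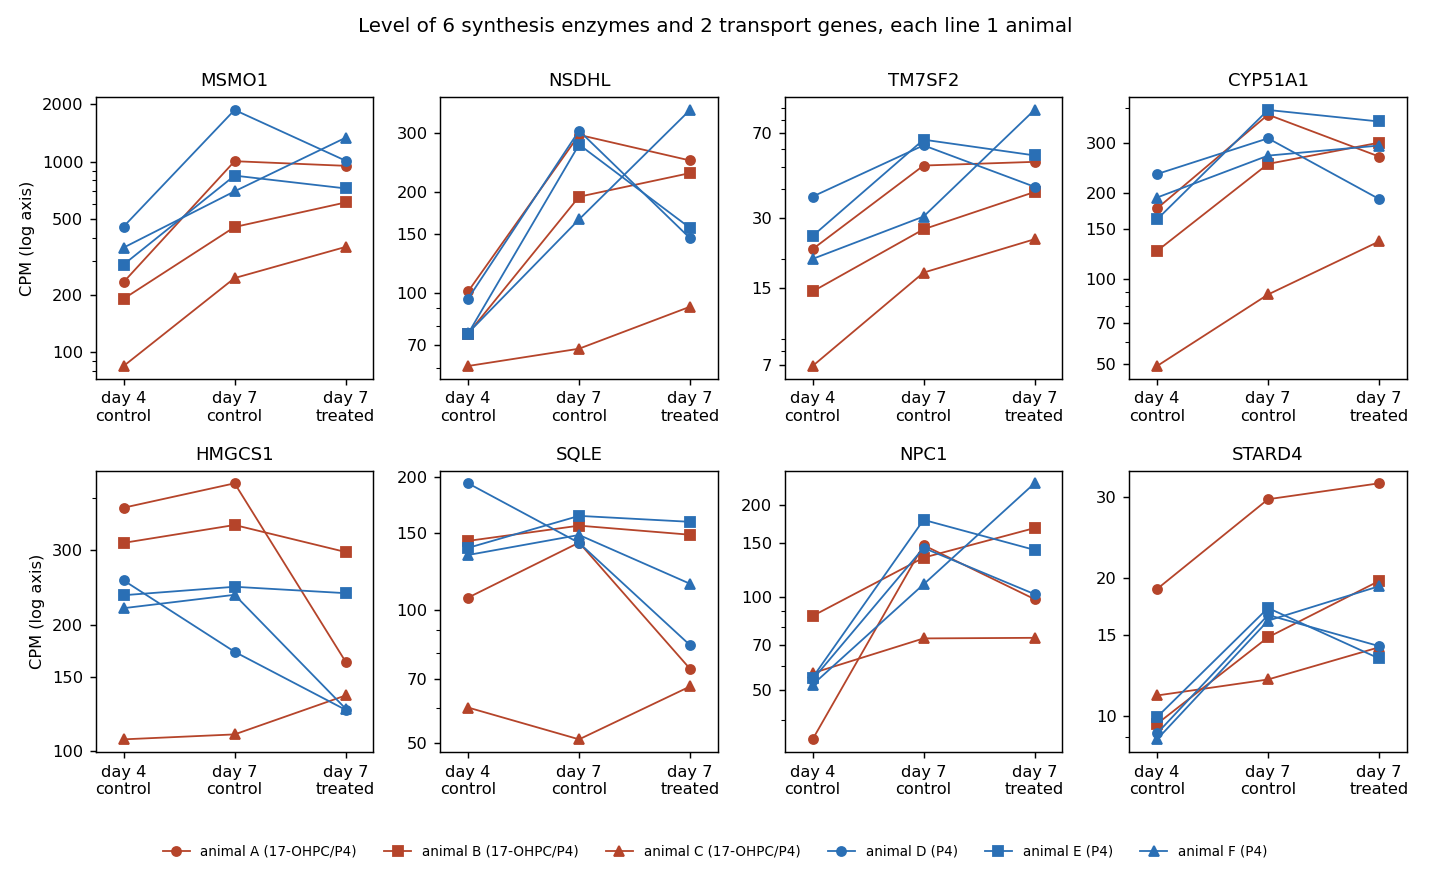
CPM on a log axis (vertical) at day 4 control, day 7 control and day 7 treated (horizontal) for MSMO1, NSDHL, TM7SF2, CYP51A1, HMGCS1, SQLE, NPC1 and STARD4; each line is 1 animal, red for the 17-OHPC/P4 arm and blue for the P4 arm. Every line is higher at control day 7 than at day 4 for MSMO1, NSDHL, TM7SF2, CYP51A1, NPC1 and STARD4, while HMGCS1 and SQLE show no common slope and animal C runs lowest for most enzymes.

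Summed over the 19 enzymes, day 4 levels were 2592, 1896, 923, 2606, 2008 and 2046 CPM in animals A to F. Control day 7 sums were 4104, 2924, 1288, 4464, 3643 and 2791 CPM. Each cow's sum was higher on day 7 than on day 4, and animal C had the lowest sum on both days. MSMO1 contributed 1872 CPM to the largest sum; without MSMO1 the 18 remaining enzymes summed to 2358, 1705, 839, 2148, 1719 and 1691 CPM on day 4 and 3097, 2469.5, 1042, 2592, 2796 and 2091 on control day 7, again higher in each cow. Animal C had the highest stromal sum and the lowest enzyme sum in each condition; the part of stromal or red cell RNA in these levels was not tested. Of the 6 proliferation markers 3 fell between the same days and 1 had a positive fitted change. Of 6 leukocyte markers 1 (CD3E) fell, and no epithelial or stromal marker was called. The part of these cells in the enzyme changes was not tested.

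**Figure D3:**
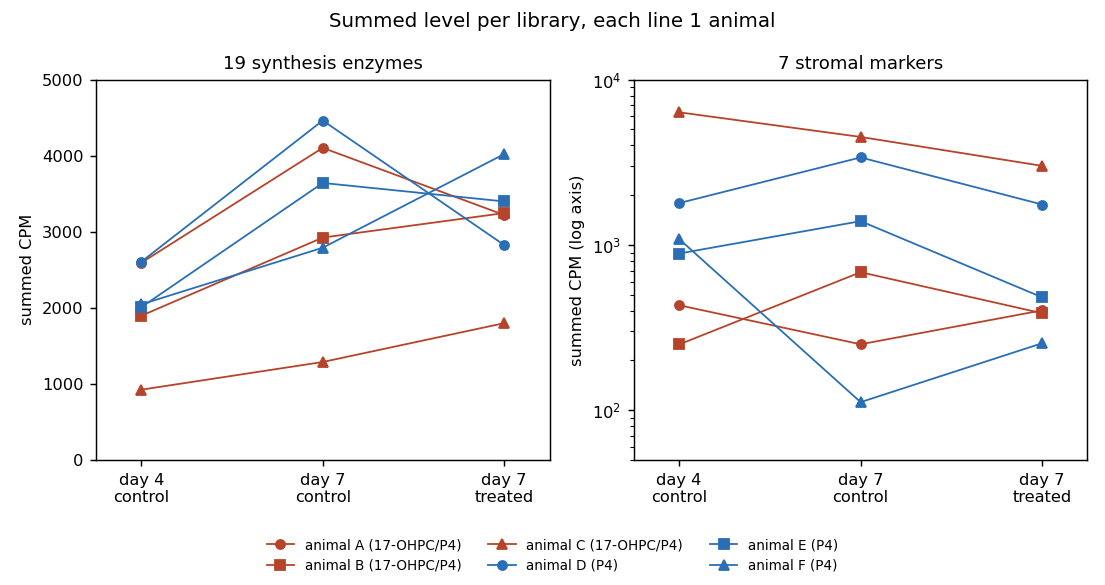
Summed CPM of the 19 synthesis enzymes (left, linear axis) and of the 7 stromal markers (right, log axis) per library at day 4 control, day 7 control and day 7 treated, each line 1 animal. All 6 enzyme lines are higher at control day 7 than at day 4, and animal C has the lowest enzyme sum and the highest stromal sum in each condition.

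Among the genes of SREBP control, SREBF1 and INSIG1 were higher on day 7 in 6 of 6 cows, and no gene of the 5 was called. SREBF1 encodes SREBP1, which mainly drives fatty acid synthesis genes. It stood at 155, 71.4 and 94.8 CPM on day 4 and 393, 213 and 161 on control day 7 in animals A, B and C, and at 145, 191 and 106 then 644, 373 and 155 in animals D, E and F. The groups separated in the 17-OHPC/P4 arm and overlapped in the P4 arm. The change over both arms was 1.33 ± 0.47 (95% interval 0.32 to 2.34, adjusted p = 0.0838).

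SREBF2, which encodes SREBP2, the main activator of cholesterol synthesis genes, was at 334, 296 and 218 CPM on day 4 and 462, 449.9 and 237 on control day 7 in the 17-OHPC/P4 arm and at 595, 584 and 489 then 416, 639 and 419 in the P4 arm. The groups overlapped and the change was 0.13 ± 0.24 (interval -0.38 to 0.64, adjusted p = 0.777). SCAP, the escort protein, stood at 73.1, 88.1 and 71.6 then 105, 91.6 and 80.2 CPM in animals A, B and C and at 129, 166 and 122.6 then 118, 144 and 82.8 in animals D, E and F. Its change over both arms was -0.01 ± 0.16 (interval -0.36 to 0.33, adjusted p = 0.972): higher on day 7 in 3 of 3 cows of the first arm and lower in 3 of 3 of the second.

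INSIG1, the retention protein that is itself an SREBP target, stood at 56.8, 115 and 34.0 CPM on day 4 and 179.6, 118 and 35.4 on control day 7 in the 17-OHPC/P4 arm. In the P4 arm it went from 55.0, 63.1 and 62.2 to 169.8, 141 and 113 CPM, with every day 7 library above every day 4 library. Animal B was already at its later level on day 4, and animal C stayed low on both days. The change over both arms was 0.96 ± 0.39 (adjusted p = 0.129). INSIG2, its paralog, was at 8.33, 18.7 and 13.5 then 18.1, 12.3 and 15.3 CPM and at 15.6, 12.8 and 13.2 then 16.3, 14.97 and 19.1 CPM in the 2 arms, with overlap in each and a change of 0.22 ± 0.17 (adjusted p = 0.455).

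**Figure D4:**
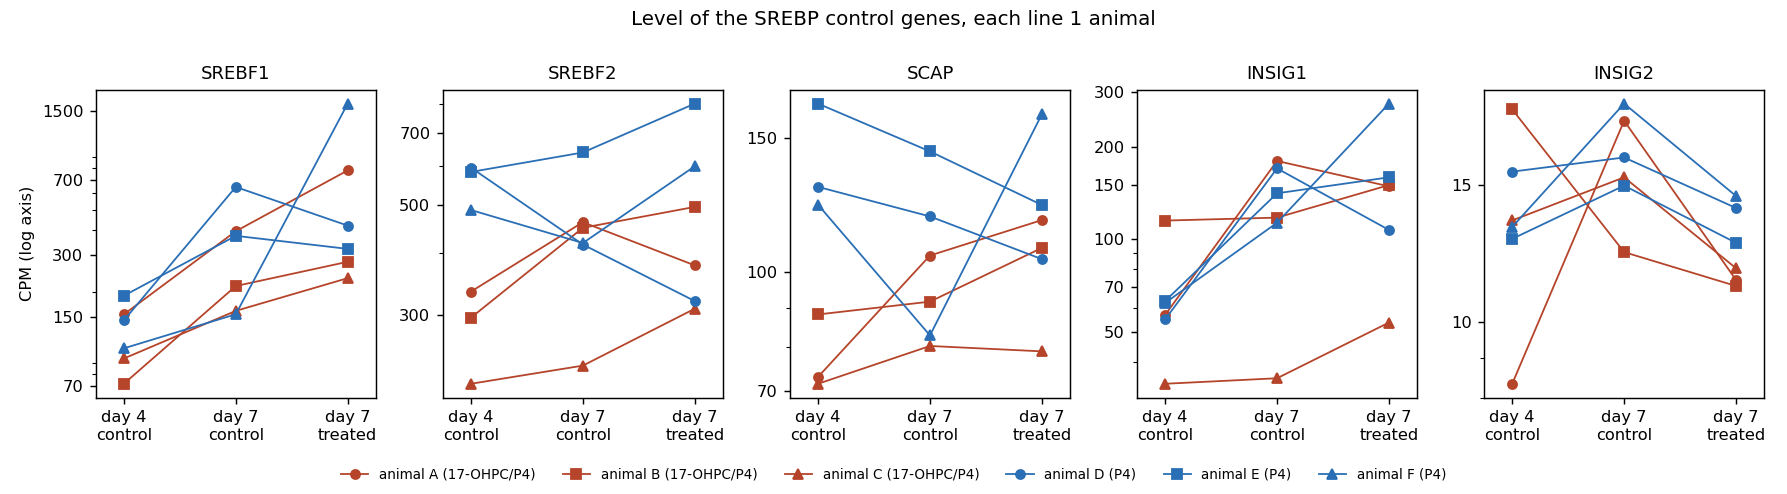
CPM on a log axis (vertical) of SREBF1, SREBF2, SCAP, INSIG1 and INSIG2 at day 4 control, day 7 control and day 7 treated (horizontal), each line 1 animal, red for the 17-OHPC/P4 arm and blue for the P4 arm. SREBF1 is higher in every cow at control day 7 than at day 4 and reaches 1634 CPM in animal F's treated library; INSIG2 is lower in every cow at treated than at control day 7.

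Among the transport, storage and efflux genes, NPC1 rose. It stood at 34.5, 87.0 and 56.7 CPM on day 4 and 148, 135 and 73.5 on control day 7 in the 17-OHPC/P4 arm and at 54.0, 54.8 and 52.0 then 145, 179 and 110.2 in the P4 arm. The P4 arm's groups were far apart, while in the other arm animal B's day 4 level exceeded animal C's day 7 level. The change was 1.22 ± 0.28, a 2.32-fold rise (95% interval 0.62 to 1.81, adjusted p = 0.0151), called without any 1 of the 12 libraries.

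STARD4, a soluble sterol carrier of the cytosol, was at 18.9, 9.62 and 11.1 CPM on day 4 and 29.7, 14.9 and 12.03 on control day 7 in animals A, B and C, and at 9.17, 9.96 and 8.90 then 16.6, 17.2 and 16.2 in animals D, E and F. It was higher on day 7 in 6 of 6 cows, with animal A above all others on both days, and its change was 0.67 ± 0.25 (adjusted p = 0.101). NPC2, the soluble lysosomal partner of NPC1, ran from 126 to 866 CPM, with its highest level in animal F's control day 7 library, and had a change of 0.71 ± 0.37 (adjusted p = 0.231). SOAT1, which esterifies cholesterol for storage, ran from 11.7 to 51.9 CPM (0.05 ± 0.27, adjusted p = 0.931). ABCA1, the exporter, stood at 34.4, 27.9 and 50.5 then 43.4, 25.8 and 99.6 CPM in the 17-OHPC/P4 arm and at 69.6, 126 and 77.2 then 38.3, 60.8 and 26.2 CPM in the P4 arm. The P4 arm's day 7 libraries were all below its day 4 libraries and the other arm's overlapped; over both arms the change was -0.27 ± 0.34 (adjusted p = 0.664).

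Taken arm by arm, the same day 4 to day 7 change gave 0 of 29 calls in the 17-OHPC/P4 arm, where 0.0407% of all genes were called and 5 of 29 had an unadjusted p under 0.05, against 9.62% of all genes. MSMO1 had the lowest adjusted p there (1.74 ± 0.55, adjusted p = 0.278), and MSMO1 and SREBF1 were the 2 genes whose groups did not overlap, a pattern of 13.6% of all genes. With the animal as a block 1 gene was called, MSMO1 (1.64, adjusted p = 0.0479), against 0.55% of all genes, and DESeq2 called 0 (1.28% of all genes). In the P4 arm NPC1 rose (1.43 ± 0.40, adjusted p = 0.0392), 1 of 29 against 8.65% of all genes. MSMO1 (1.64 ± 0.55, adjusted p = 0.0755) and NSDHL (1.59 ± 0.50, adjusted p = 0.0613) missed the threshold. The groups did not overlap for 11 genes (34.1% of all genes): MVD, IDI1, FDPS, CYP51A1, MSMO1, NSDHL, INSIG1, STARD4 and NPC1 were higher and ACAT2 and ABCA1 lower on day 7. The NPC1 call was lost without any 1 of the arm's 6 libraries other than animal F's control day 7 library (adjusted p of 0.0925 to 0.124), whereas with the animal as a block 7 genes were called (15.1% of all genes), 6 higher (IDI1, MSMO1, NSDHL, INSIG1, STARD4 and NPC1) and ABCA1 lower (-1.14, adjusted p = 0.0165).

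The difference between the arms in this untreated change was tested directly and gave 0 of 29 calls and 0% of all genes by edgeR, with 1 of 29 and 7.71% at an unadjusted p under 0.05. ABCA1 had the largest difference, 1.70 ± 0.68 (17-OHPC/P4 arm minus P4 arm, 95% interval 0.25 to 3.16, adjusted p = 0.59). SCAP, whose direction split by arm, differed by 0.53 ± 0.32 (adjusted p = 0.74).

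Treatment was then compared with the untreated cycle at the same day. On day 7 of the treated cycle none of the 29 genes was called against control day 7 over both arms, and 0% of all 19638 genes were called by edgeR; at an unadjusted p under 0.05 there were 1 gene of the module and 4.33% of all genes, and DESeq2 called 0 of the module and 2 genes in all. The median change of the 29 genes was -0.09, against -0.01 for all genes, with 13 positive and 16 negative. For the genes that rose by day 7 the intervals were wide: MSMO1 had a change of 0.01 ± 0.38 (95% interval -0.80 to 0.82), NSDHL -0.09 ± 0.35 (-0.82 to 0.65) and NPC1 0.04 ± 0.28 (-0.55 to 0.63). Changes of about 0.8 in MSMO1, in either direction, therefore lie within its interval.

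**Figure D5:**
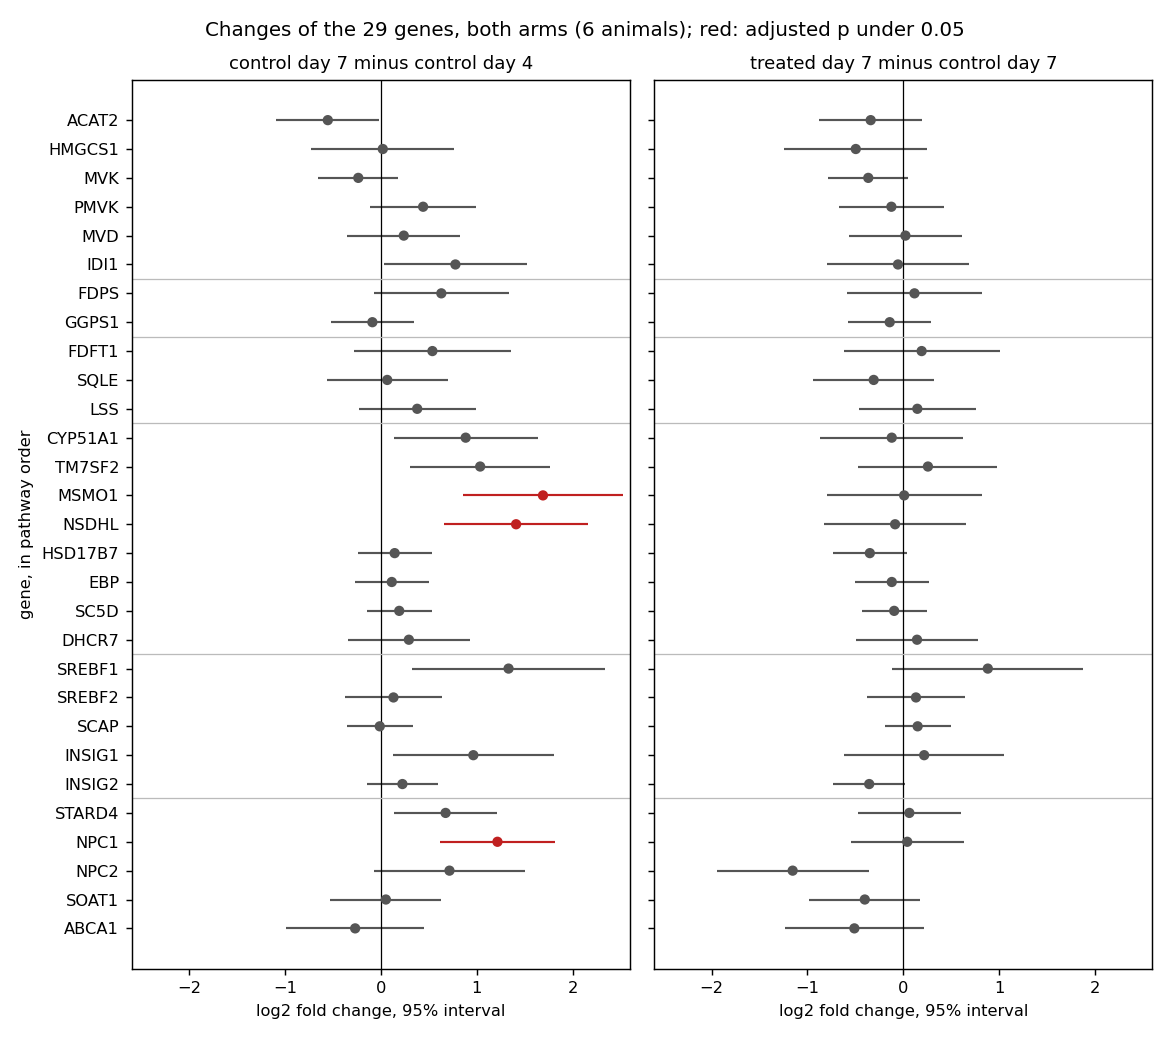
Log2 fold change (points) with 95% interval (bars) of the 29 genes over both arms, 6 animals, for control day 7 minus control day 4 (left) and treated day 7 minus control day 7 (right); red marks adjusted p under 0.05. MSMO1, NSDHL and NPC1 are red on the left, and on the right no gene is red and NPC2 alone has an interval clear of 0.

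NPC2 had the lowest unadjusted p of the module (-1.15 ± 0.37, unadjusted p = 0.00737, adjusted p = 0.896). Control day 7 levels were 286, 473 and 283 CPM in animals A, B and C and 193, 149.7 and 866 in animals D, E and F; treated levels were 144, 181 and 175 and 219, 164 and 126. Animals A, B, C and F were lower after treatment and D and E slightly higher, and without animal F's control library, the highest of all, the change was -0.54. In the same comparison the 5 tested macrophage markers (CD14 and CD68 among them) had a median change of -1.23 with 0 of 5 positive, and the 7 stromal markers one of -0.71 with 0 of 7 positive; none was called. The macrophage sum was 67.0 to 294.6 CPM on control day 7 and 14.9 to 82.1 CPM on treated day 7, with MARCO at 0 in most of these libraries, and the stromal sum 112 to 4506 and 254 to 3011 CPM; their part in the NPC2 and other treated against control differences was not tested. INSIG2 was lower in 6 of 6 cows, at 11.3, 11.1 and 11.7 CPM in animals A, B and C and 14.0, 12.6 and 14.51 in D, E and F on treated day 7, with a change of -0.36 ± 0.17 (adjusted p = 0.896); 1 of 29 genes (3.45%) was thus lower in all 6 cows, against 2.18% of all genes, and 0 of 29 were higher in all 6, against 2.35% of all genes.

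SREBF1 on treated day 7 stood at 775, 279 and 233 CPM in animals A, B and C and at 418, 322 and 1634 in animals D, E and F. It was above the cow's own control day 7 level in animals A, B, C and F and below it in D and E. The change was 0.88 ± 0.47 (95% interval -0.12 to 1.88, adjusted p = 0.896), and 0.33 without the treated library of animal F. That library had the highest level of the 18 for 7 genes of the module, and relative to the same cow's control day 7 it was higher by more than 1 on the log2 scale for 7 genes, including SREBF1 (3.39), TM7SF2 (1.53), INSIG1 (1.28) and NSDHL (1.08).

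The cows differed in the sign of the treated minus control difference. In animals A and D 23 and 25 of the 29 genes were lower on treated day 7, and in animal E 21 were. In animals B, C and F 20, 22 and 18 genes were higher. Treated enzyme sums were 3221, 3246, 1798, 2826, 3399 and 4023 CPM in animals A to F, all above the cow's own day 4 sum. The sum was lower than on control day 7 in animals A, D and E and higher in B, C and F. HMGCS1 and SQLE were lower after treatment in 5 of 6 cows, animal C being the exception in both; HMGCS1 stood at 163, 297 and 136 CPM in animals A, B and C and 125, 237 and 126 in D, E and F (-0.50 ± 0.35, adjusted p = 0.896).

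Within the arms the treated against control comparison gave 0 of 29 calls and 0% of all genes in each; unadjusted p was under 0.05 for 0 of 29 genes (1.89% of all genes) after 17-OHPC/P4 and for 1 of 29 (3.03%), NPC2, after P4. SREBF1 differed by 0.75 ± 0.66 (-0.66 to 2.15) in the 17-OHPC/P4 arm and by 1.02 ± 0.66 (-0.40 to 2.43) in the P4 arm. MSMO1 differed by 0.17 ± 0.54 (-0.97 to 1.32) and -0.15 ± 0.54 (-1.30 to 0.99). The groups of 3 did not overlap for INSIG2 and NPC2 after 17-OHPC/P4 (8.55% of all genes) and for INSIG2 and ACAT2 after P4 (5.75% of all genes), all lower on treated day 7.

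Treated day 7 was also set against control day 4, which spans both the days of the cycle and the treatment. In the 17-OHPC/P4 arm 0 of 29 genes were called (0.682% of all genes). With the animal as a block 3 rose (5.24% of all genes): CYP51A1 (1.13, adjusted p = 0.0406), TM7SF2 (1.50, adjusted p = 0.0368) and MSMO1 (1.92, adjusted p = 0.0093). MSMO1 had reached 953, 612 and 357 CPM on treated day 7 in that arm, every library above every day 4 library of the arm. The groups of 3 did not overlap for 5 of 29 genes (17.2%), against 23.9% of all genes: MSMO1, TM7SF2 and SREBF1 were higher and GGPS1 and NPC2 lower. The MSMO1 change without the block was 1.92 ± 0.55 (adjusted p = 0.106). At an unadjusted p under 0.05 there were 7 of 29 genes and 20.5% of all genes, and DESeq2 called 2 (4.94% of all genes), MSMO1 and SREBF1.

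In the P4 arm SREBF1 and NPC1 rose from control day 4 to treated day 7, 2 of 29 or 6.9% against 7.48% of all genes (4.32% as higher). SREBF1 changed by 2.42 ± 0.69 (adjusted p = 0.0467) and NPC1, at 102, 143 and 235 CPM on treated day 7, by 1.58 ± 0.40 (adjusted p = 0.0314). Without animal F's treated library SREBF1 had a change of 1.33 (adjusted p = 0.281) and NPC1 of 1.19 (adjusted p = 0.153). Of the 6 refits that each left out 1 library, SREBF1 was called in 1 and NPC1 in 2. With the animal as a block 10 genes were called (13.8% of all genes): IDI1, TM7SF2, MSMO1, NSDHL, SREBF1, INSIG1, STARD4 and NPC1 rose, while ACAT2 (-1.01, adjusted p = 0.0243) and ABCA1 (-1.47, adjusted p = 0.0074) fell. ABCA1 was at 18.6, 52.9 and 30.8 CPM on treated day 7 in this arm, below all 3 day 4 libraries; the groups did not overlap for 12 of 29 genes (41.4%), against 34.8% of all genes. Of the 6 proliferation markers 5 fell in the same comparison, and the median fitted change of the 6 was -3.34. The other marker, CCNB1, was higher in each cow. It stood at 132, 80.7 and 41.3 CPM on day 4 and 214, 243 and 359 on treated day 7 in animals D, E and F. The sum of all 6 was 535 to 1102 CPM on day 4 and 231 to 377 CPM on treated day 7, where CCNB1 made up most of it. The part of these markers in the changes of the module was not tested.

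Over both arms 8 of 29 genes (27.6%) were higher on treated day 7 than on day 4 in 6 of 6 cows, against 13.6% of all genes: IDI1, TM7SF2, MSMO1, NSDHL, SREBF1, INSIG1, STARD4 and NPC1. All 8 also belong to the 11 that were higher in every cow on control day 7; both counts share the day 4 libraries. ACAT2 and ABCA1 were lower in all 6 (6.9%, against 13% of all genes). ACAT2 fitted changes were -0.77 ± 0.36 (adjusted p = 0.241) in the 17-OHPC/P4 arm and -1.02 ± 0.36 (adjusted p = 0.0942) in the P4 arm.

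The 2 treatments differ in compound and in dose, 100 mg 17-OHPC with 10 mg P4 against 100 mg P4, so they are set side by side and were not given at matched doses; 17-OHPC carries a hydroxyl group esterified with caproate that progesterone lacks. On treated day 7 none of the 29 genes was called between the arms (0.0102% of all genes; 1 of 29 and 9.13% at an unadjusted p under 0.05; DESeq2 called 0 of 29). EBP, the sterol isomerase, had the lowest adjusted p: 38.0, 47.3 and 27.4 CPM after 17-OHPC/P4 and 51.3, 66.0 and 62.2 after P4, every library of the first group below every library of the second. The groups did not overlap for 4 of 29 genes (13.8%), against 13.4% of all genes: MVK was higher and HSD17B7, EBP and INSIG2 lower after 17-OHPC/P4. The EBP difference was -0.67 ± 0.26 (95% interval -1.22 to -0.12, adjusted p = 0.447). The mean order of EBP was the same on both days of the untreated cycle. On day 4, before any treatment, the groups did not overlap either. EBP was then at most 46.2 CPM in animals A, B and C and at least 52.2 CPM in D, E and F. The arms were not compared by a test on day 4. On control day 7 the groups overlapped, at 44.2, 52.6 and 29.4 and 77.5, 47.8 and 64.0 CPM (-0.58 ± 0.26, adjusted p = 0.449). Between the arms 0 of 29 genes were called on control day 7 (0.00509% of all genes). At an unadjusted p under 0.05 there were 1 of 29 and 10.6% of all genes.

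The response to treatment, treated minus control day 7, was compared between the arms as a difference of differences: 0 of 29 genes and 0% of all genes were called, with 0 of 29 and 1.26% at an unadjusted p under 0.05. The difference was -0.27 ± 0.93 for SREBF1 (95% interval -2.25 to 1.71), 0.32 ± 0.76 for MSMO1 (-1.30 to 1.94), -0.21 ± 0.55 for NPC1 (-1.39 to 0.97) and -0.13 ± 0.35 for INSIG2 (-0.88 to 0.61). Intervals of this width leave differences of 1 log2 unit within reach for SREBF1, MSMO1 and NPC1, so the test does not show that the 2 treatments act alike on these genes. Leaving out animal C changed none of the 0 counts of these between-arm comparisons.

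Other genes of cholesterol biology were read from 6 lists of 54 genes, of which 53 had a row and 52 were tested. Between day 4 and control day 7 over both arms 6 of them rose and 0 fell, to be read against the 10.6% of all genes given above; 5 of the 6 are described here. ACSS2, which makes acetyl-CoA from acetate, rose by 1.81 ± 0.38 (adjusted p = 0.0103), 1 of 4 genes of acetyl-CoA supply. NUS1, a subunit of the enzyme that makes dolichol chains, rose by 1.06 ± 0.23 (adjusted p = 0.0126), 1 of 10 of the isoprenoid branch. LRP8, a receptor of the lipoprotein receptor family, went from 17.6 ± 13.9 CPM (SD, n = 6) on day 4 to 159 ± 111 on control day 7, a rise of 3.05 ± 0.59 (adjusted p = 0.00681), and was the only called gene of 10 receptors and efflux genes. Of 7 tested genes of oxysterol and sterol breakdown CYP39A1, an oxysterol hydroxylase, went from 76.9 ± 46.6 to 1434 ± 922 CPM (4.27 ± 0.66, adjusted p = 0.00226) and the mitochondrial sterol hydroxylase CYP27A1 rose by 1.08 ± 0.26 (adjusted p = 0.0196). CYP27A1 lost its call without any 1 of 5 libraries (adjusted p of 0.0506 to 0.0629). None of 11 genes of sterol transport and lysosomal release was called.

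None of the 52 tested was called between treated and control day 7. From control day 4 to treated day 7 in the P4 arm, ACSS2, NUS1, LRP8 and CYP39A1 rose again, and SCARB1, the receptor for high-density lipoprotein, had a change of -1.85 ± 0.48 (adjusted p = 0.0353). In the 17-OHPC/P4 arm CYP39A1 alone was called over that span (4.56 ± 0.95, adjusted p = 0.045; 0.0567 without animal C). Each of these calls over single arms was lost without some single library.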

How the data were processed

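Poly(A) RNA of 18 brushed endometrial samples was sequenced, and the authors deposited raw whole-number counts per gene. Tools listed in the submitters' processing notes, with no version, are featureCounts, STAR, cutadapt, FastQC and DESeq2. The build, the annotation, the strandedness and whether mates were counted singly are not given in the sources used. Of counts from 1 to 5, 79.1% were even, against 50.8% of counts above 1000. Genes were matched by the symbol in the table.

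All 18 libraries were fitted in edgeR 4.0.16 (R 4.3.3; TMM factors 0.881 to 1.16; filterByExpr, 19638 genes kept; robust quasi-likelihood F test, 1 mean per group), with Benjamini-Hochberg adjustment over all genes tested and a threshold of 0.05. Replicates are separate animals. The biological coefficient of variation was 51.4%. SE is the absolute log2 fold change over the root of F, and intervals use the test's total degrees of freedom, residual plus prior. CPM uses the total count times the TMM factor; changes within an animal use log2 CPM with a prior count of 2. The procedure was also run on simulated counts. These were drawn without a shared effect of the animal, so that run could not test the handling of the repeated samples. The 12 comparisons are those named in the text.

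The labels give 1 animal letter to the 3 samples of a cow, which pairs them. Deviations of a cow's libraries from the group means correlated by 0.39 to 0.72 in animals A, B and C, 0.08 to 0.31 in D, -0.01 to 0.36 in E and -0.07 to 0.03 in F. Alternatives were median-of-ratios factors, no filter, DESeq2 1.42.0, only the compared groups, the animal as a block and each library left out; leaving out animal C was added after seeing the data.

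The module's genes, the gene lists and the tests were chosen with earlier results of these data known. All 29 genes are named. Values per library are given for genes called in any comparison, for genes whose groups do not overlap in a comparison with a called gene of the same role, and for SREBF1, SREBF2, SCAP, INSIG1 and INSIG2; those of HMGCS1, TM7SF2, EBP and NPC2 were added after seeing the values. From each of the other lists up to 4 called genes per comparison are named, and some genes of these lists are not reported here. No sequence or coordinate was used here.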

Additional observations from a re-analysis of the deposited data

Results flagged for a closer look

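In 8 of 87 groups of 6 libraries (29 genes in 3 conditions), 1 library lay apart from the other 5 by Dixon's test for a single extreme value at the 95% level. That level flags about 1 in 20 groups only for independent groups of normally distributed values. These groups hold CPM of both arms and share the same animals, so the count of 8 is not read as an excess. On day 4 these were INSIG1 in animal B (115 CPM, others 34.0 to 63.1) and STARD4 in animal A (18.9 CPM, others 8.90 to 11.1). On control day 7 they were PMVK in animal A (84.5 CPM, others 28.9 to 48.2), MVD in animal C (31.4 CPM, others 68.1 to 86.8), SQLE in animal C (51.0 CPM, others 142 to 164) and STARD4 in animal A (29.7 CPM, others 12.03 to 17.2). On treated day 7 they were ACAT2 in animal B (63.2 CPM, others 30.9 to 38.3) and STARD4 in animal A (32.2 CPM, others 13.4 to 19.7). STARD4 in animal A was thus the high value in all 3 conditions.

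SCAP was higher on control day 7 than on day 4 in animals A, B and C and lower in D, E and F. The difference between the arms in this change was 0.53 ± 0.32 on the log2 scale (edgeR's quasi-likelihood test, adjusted p = 0.74). How many of all genes split in this way was not counted. On day 4 SCAP was already at 71.6 to 88.1 CPM in animals A, B and C and at 122.6 to 166 CPM in D, E and F.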

How the results depend on the processing

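The counts of called genes of the module moved most with the handling of the pairing. With the animal as a block the count went from 3 to 9 for control day 7 against day 4 over both arms, from 0 to 1 in the 17-OHPC/P4 arm and from 1 to 7 in the P4 arm, and for treated day 7 against control day 4 from 0 to 3 in the 17-OHPC/P4 arm and from 2 to 10 in the P4 arm; the block changed no other count, and no paired fit applies to the comparisons between different animals. DESeq2 gave 5 (both arms) and 4 (P4 arm) for the first comparison. For treated day 7 against day 4 it gave 2 (17-OHPC/P4 arm) and 6 (P4 arm). In the same order, DESeq2 called 3478, 3356, 1448 and 2915 of all 29284 genes it tested. With only the compared groups the P4 arm gave 5 in each of these comparisons. Of all genes, 1831 of 18063 were then called for control day 7 and 1931 of 18105 for treated day 7, each against day 4. Without a filter on low counts, treated day 7 against day 4 in the P4 arm gave 1, with 1052 of all 29409 genes called. Leaving out 1 library gave 2 to 7 for day 7 against day 4 over both arms and 0 to 2 in the P4 arm. For treated day 7 against day 4 in the P4 arm it gave 0 to 2. The share of all genes called in these refits is not given here. Leaving out animal C gave 6 (7.58% of all genes) for day 7 against day 4 over both arms. Median-of-ratios factors left all 12 counts within 1.5 times. Called single genes kept their direction under every alternative run. SREBF1 (treated day 7 against day 4, P4 arm) lost its call without the filter and with only the compared groups. CYP39A1 (the same span, 17-OHPC/P4 arm) lost its call under these too and without animal C. Of the refits of called single genes without 1 library, 81 lost the call and the others kept it. The lowest count of a module gene was 278, which may stand for fewer fragments, and groups held 3 animals; the part of each in the interval widths was not tested.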

Other observations

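Ratios of counts within a library, chosen after the values were seen and given without a test, do not depend on the scaling of libraries. The count of MSMO1, late in the pathway, over that of HMGCS1, early in it, was 0.617, 0.611, 0.794, 1.80, 1.23 and 1.62 on day 4 in animals A to F. It was 2.33, 1.32, 2.24, 10.9, 3.44 and 2.98 on control day 7 and 5.83, 2.06, 2.63, 8.08, 3.05 and 10.6 on treated day 7. In each cow both day 7 ratios exceeded the day 4 ratio. Since the genes differ in length, the ratios compare libraries and not the 2 genes.

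The count of SREBF1 over SREBF2 was 0.464, 0.241, 0.435, 0.244, 0.327 and 0.217 on day 4 in animals A to F, 0.851, 0.473, 0.681, 1.55, 0.584 and 0.371 on control day 7, and 2.05, 0.563, 0.753, 1.31, 0.402 and 2.73 on treated day 7. Both day 7 ratios exceeded the day 4 ratio in each cow, and the treated ratio exceeded the control day 7 ratio in animals A, B, C and F. The count of INSIG1 over INSIG2 ran from 2.52 to 6.82 on day 4, from 2.31 to 10.4 on control day 7 and from 4.58 to 18.99 on treated day 7. The lowest INSIG1 over INSIG2 ratio in each condition was that of animal C.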
